A study of Mus musculus with 6 samples.

Results

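The miRNAs miR-208a, miR-208b and miR-499 are cut from hairpins inside introns of the myosin heavy chain genes Myh6, Myh7 and Myh7b. Each hairpin gives a 5p and a 3p arm, and the 6 arms (mmu-miR-208a-3p, mmu-miR-208a-5p, mmu-miR-208b-3p, mmu-miR-208b-5p, mmu-miR-499-5p and mmu-miR-499-3p, written below without the mouse prefix) were taken from the deposited table of mature miRNAs by exact name. All 6 were found among its 2009 names, and 4 of them passed the filter on low values. The libraries came from hearts of male mice, with no strain or age given in the labels. Every heart was taken out and perfused on a Langendorff system, which supplies an isolated heart through the aorta. In the ischemia-reperfusion group (I/R, 3 hearts) contraction was stopped with cardioplegia for 30 min and the heart was then reperfused for 1 h, while in the Sham group (3 hearts) the perfused heart was not arrested. The labels call the libraries biological replicates and number them 1 to 3 in each group. The titles call the assay miRNA-seq, although the library protocol in the labels describes kits for poly(A) mRNA.

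Myosin heavy chain is the motor protein of the sarcomere. Myh6 encodes the fast alpha chain that dominates the adult mouse ventricle, Myh7 the slower beta chain of the fetal and the stressed heart, and Myh7b a further chain of slow muscle. The miRNAs in their introns are made mainly by heart and slow skeletal muscle, where they repress mRNAs of transcriptional repressors of slow muscle genes such as Sox6. In mice, loss of miR-208a blunts the rise of the beta chain under stress, and miR-208a and miR-499 are also known as blood markers of heart muscle injury.

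The mature sequences are shown because a miRNA recognises its targets chiefly through the seed at bases 2 to 8, which groups the arms. All 6 were matched by name to RefSeq (build GRCm38.p6), and they are printed 5′ to 3′ with the seed in capitals.
miR-208a-3p: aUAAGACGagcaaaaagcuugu
miR-208b-3p: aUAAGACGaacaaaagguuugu
miR-499-5p: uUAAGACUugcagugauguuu
miR-208a-5p: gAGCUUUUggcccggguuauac
miR-208b-5p: aAGCUUUUugcucgcguuaugu
miR-499-3p: gAACAUCAcagcaagucugugcu

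The 3p arms of miR-208a and miR-208b had the same seed, and miR-499-5p shared its bases 2 to 7 but not base 8. Among the other 1678 names of the table with a RefSeq sequence, the only names with bases 2 to 7 of miR-208a-3p were miR-208b-3p and miR-499-5p. The 3p arms of miR-208a and miR-208b were identical at 19 of 22 positions. Counted from the 5′ end, with the miR-208a base first, they differed by G10A, A16G and C18U, so the letters at these positions tell the arms apart. Over 21 positions miR-499-5p matched miR-208a-3p at 12, and their longest common stretch was the 6 bases at positions 2 to 7. The 5p arms of miR-208a and miR-208b also had the same seed and were identical at 16 of 22 positions. The 1 further name with that seed, miR-6415, was at 0 in every library.

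The hairpins show that the shared seed sits on opposite arms. They are printed 5′ to 3′ with the 5p and then the 3p arm in capitals.
Mir208a: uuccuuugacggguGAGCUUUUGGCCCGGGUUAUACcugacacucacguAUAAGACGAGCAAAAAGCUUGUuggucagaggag
Mir208b: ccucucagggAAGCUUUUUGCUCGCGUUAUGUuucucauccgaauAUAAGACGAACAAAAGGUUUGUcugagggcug
Mir499: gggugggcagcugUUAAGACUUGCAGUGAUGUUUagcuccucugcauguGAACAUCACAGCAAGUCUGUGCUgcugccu

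The Mir208a and Mir208b hairpins carry the shared seed on the 3p arm, and Mir499 carries it on the 5p arm. Aligned over 87 columns, the Mir208a and Mir208b hairpins were identical at 58, or 66.7%. Mir208a lies on the minus strand of chromosome 14 at chr14:54949060-54949142, in intron 29 of 38 of Myh6, between exons 29 and 30. Mir208b lies on the same strand at chr14:54975700-54975776, in intron 31 of 40 of Myh7, and 26557 bases separate both hairpins. Mir499 lies on the plus strand at chr2:155622880-155622958, in intron 19 of 41 of Myh7b. Introns were read from GENCODE M21 on GRCm38, the build that the submitters' processing notes name as mm10. Each hairpin lies on the strand of its host, the introns are 542, 461 and 481 bases long, and no other annotated gene or RefSeq hairpin overlaps any of the 3. The host mRNAs were not analysed here.

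The libraries held 7874103 to 8196102 reads in I/R and 8099411 to 9197869 reads in Sham hearts. Levels are given as reads per 1000000 reads of the library (RPM) and means as mean ± SD. Because the arms are 21 to 23 bases long, no length was divided out. The smallest amount read here, 3 reads, was 0.326 to 0.381 RPM, and all counting intervals cover counting error only. The heart label was checked on miR-1a-3p, miR-133a-3p, miR-133b-3p and miR-206-3p, miRNAs of heart and skeletal muscle. Together these held 352402 to 376868 RPM in I/R and 380146 to 383816 RPM in Sham hearts, and the groups did not overlap. Nearly all of this was miR-1a-3p, with means of 365121 RPM in I/R and 380232 RPM in Sham hearts. The part of this difference in the results was not tested. Marker miRNAs of other cells held 25929 to 31932 RPM in I/R and 24976 to 27579 RPM in Sham hearts for 4 endothelial names, and 41341 to 50039 and 35740 to 46968 RPM for 4 names of smooth muscle and fibroblasts. Nearly all of the endothelial sum was miR-126a-3p, with means of 27683 RPM in I/R and 25563 RPM in Sham hearts. The smooth muscle and fibroblast sum was nearly all miR-143-3p, with means of 44146 and 40066 RPM. Of that list 3 names were higher and 1 lower in I/R, miR-145a-5p at 39.8 ± 2.0 and 50.3 ± 24.3 RPM. The 4 leukocyte names held 86.8 to 89.0 RPM in I/R and 77.1 to 103 RPM in Sham hearts, and 3 red blood cell names held 1432 to 1793 and 1292 to 1603 RPM. Nearly all of the red blood cell sum was miR-486a-5p, at 1553 ± 207 RPM in I/R and 1456 ± 157 RPM in Sham hearts. The others were scarce and lower in I/R, with miR-451a at 2.75 ± 1.78 and 4.72 ± 1.52 RPM and miR-144-3p at 0.25 ± 0.21 and 0.45 ± 0.27 RPM. The sum of this list follows miR-486a-5p and not the other names, so it is not read here as a measure of blood in the hearts. In whole tissue, fewer cells of a type and less RNA per cell cannot be told apart.

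The member arms fell into 3 tiers that were the same in every library. miR-499-5p stood at the top, at 5217 to 6248 RPM. miR-208a-3p followed at 147 to 181 RPM, and each of the other 4 arms stayed under 4 RPM, where neighbours overlapped: miR-208b-3p with miR-208a-5p, and miR-499-3p with miR-208b-5p. Together the 6 arms held 5840 ± 501 RPM in I/R and 5776 ± 356 RPM in Sham hearts (n = 3 each). This was 0.584 ± 0.050% and 0.578 ± 0.036% of the reads summed over the table. Of this sum, 96.9% to 97.5% was miR-499-5p in each library.

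**Figure D1:**
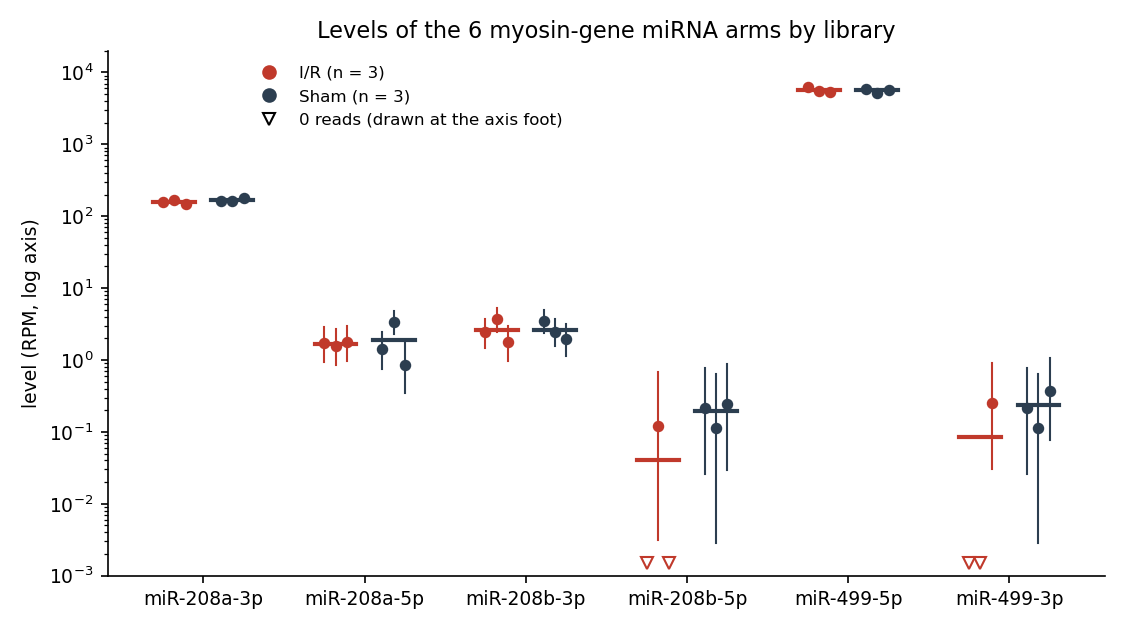
Levels of the 6 arms in each library on a log axis in RPM, with I/R libraries left and Sham libraries right in replicate order 1 to 3; thick lines are group means, thin lines exact 95% Poisson intervals of counting, and open triangles libraries with 0 reads, drawn without an interval. miR-499-5p lies between 5217 and 6248 RPM and miR-208a-3p between 147 and 181 RPM, and for both arms the groups overlap.

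miR-499-5p is the guide strand from Myh7b. Its level was 6248, 5478 and 5310 RPM in I/R replicates 1 to 3, against 5913, 5217 and 5676 RPM in Sham replicates 1 to 3. The highest level was in an I/R heart and the lowest in a Sham heart, and the groups overlapped. It took place 18 among all names by its mean, and places 18 to 22 within the libraries. The means were 5679 ± 500 RPM in I/R and 5602 ± 354 RPM in Sham hearts (n = 3 each). In limma's test across the table, the log2 fold change of I/R over Sham on the log2(RPM + 1) scale was 0.02, with SE 0.09, a 95% interval of -0.18 to 0.22 and adjusted p = 0.955. The interval corresponds to a fold of 0.881 to 1.16, and the sign turned under both other scalings, in edgeR and in DESeq2.

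miR-208a-3p is the guide strand from the Myh6 intron. It stood at 156, 169 and 147 RPM in I/R replicates 1 to 3, against 164, 162 and 181 RPM in Sham replicates 1 to 3. The highest library was a Sham heart and the lowest an I/R heart, and I/R replicate 2 lay above Sham replicates 1 and 2. These levels came from 1156 to 1506 reads per library, and its place among all names was 88 to 107. The means were 157 ± 11.2 RPM in I/R and 169 ± 10.3 RPM in Sham hearts (n = 3 each). The limma log2 fold change was -0.10, with SE 0.11, a 95% interval of -0.36 to 0.15 and adjusted p = 0.792, and the interval corresponds to a fold of 0.780 to 1.11. Its sign was negative under all 15 alternatives, with log2 fold changes of -0.21 to -0.05 and adjusted p of 0.621 to 0.956. The other filters and the replicate block could not move the log2 fold change, which stayed at -0.10, and all alternatives reuse the same hearts.

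**Figure D2:**
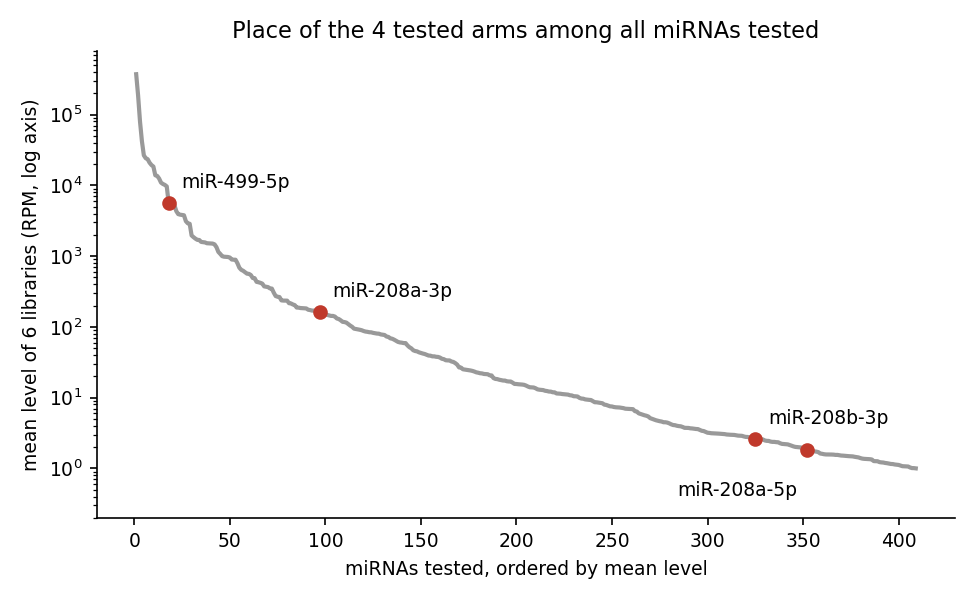
Mean level of the 6 libraries in RPM on a log axis for the 409 miRNAs tested, ordered from the most to the least abundant, with the 4 tested arms marked. miR-499-5p lies near the upper end of the curve, miR-208a-3p at 163 RPM, and miR-208b-3p and miR-208a-5p at 2.64 and 1.79 RPM near its lower end.

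miR-208b-3p, the guide strand from Myh7, was scarce in all hearts. It had 20, 30 and 14 reads in I/R replicates 1 to 3, or 2.44, 3.67 and 1.78 RPM, against 32, 22 and 16 reads, or 3.48, 2.49 and 1.98 RPM, in Sham replicates 1 to 3. Each group held a library above 3 RPM and a library under 2 RPM, so the groups overlapped over most of their range. The means were 2.63 ± 0.96 RPM in I/R and 2.65 ± 0.76 RPM in Sham hearts (n = 3 each). The limma log2 fold change was -0.02, with SE 0.25 and adjusted p = 0.976. Its 95% interval of -0.60 to 0.56 is wider than that of miR-208a-3p, and on this scale it understates the change of so scarce a miRNA.

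The passenger arm miR-208a-5p had 14, 13 and 14 reads in I/R replicates 1 to 3, or 1.71, 1.59 and 1.78 RPM, against 13, 30 and 7 reads, or 1.41, 3.39 and 0.864 RPM, in Sham replicates 1 to 3. The I/R libraries were close together, while the Sham libraries held both the highest and the lowest level. The means were 1.69 ± 0.10 RPM in I/R and 1.89 ± 1.33 RPM in Sham hearts (n = 3 each), and the limma log2 fold change was -0.01, with SE 0.31, a 95% interval of -0.71 to 0.70 and adjusted p = 0.992. Without Sham replicate 2 the log2 fold change was 0.34 with adjusted p = 0.566, and without Sham replicate 3 it was -0.27. Sham replicate 2 also had the highest level of miR-133a-3p, 1798 RPM, against 798 to 1006 RPM in the other libraries, and the part of this library in the result was not tested beyond leaving it out.

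The other passenger arms were at the edge of detection and were not tested. miR-208b-5p had 0, 1 and 0 reads in I/R replicates 1 to 3, against 2, 1 and 2 reads in Sham replicates 1 to 3. miR-499-3p had 0, 0 and 2 reads in I/R, against 2, 1 and 3 reads in Sham hearts. Neither had more than 3 reads in any library, so no fold is given. By the limit of 3 reads that is used here for a count of 0, I/R replicate 1 allows up to 0.366 RPM. A difference between the groups was not detectable at this depth.

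The spread between hearts of 1 group differed among the arms. As a description, with 1 as the value for pure counting, the within-group chi-square per degree of freedom was 279 for miR-499-5p and 5.84 for miR-208a-3p. It was 4.01 for miR-208a-5p and 2.36 for miR-208b-3p. For the same relative spread this value grows with the number of reads, so it does not rank the arms by spread. Over all libraries miR-499-5p had 284336 reads and miR-208a-3p 8212. On the log2(RPM + 1) scale the within-group SD was 0.11 for miR-499-5p and 0.09 for miR-208a-3p, at percentiles 18.3 and 13.4 of the 409 tested. The scarce arms varied more, with SD of 0.34 for miR-208b-3p and 0.45 for miR-208a-5p, at percentiles 76.8 and 90.7.

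The miRNA of Myh7, the myosin of the stressed heart, was set against that of Myh6, the adult form. miR-208b-3p made up 1.54%, 2.12% and 1.20% of the reads of both 3p arms in I/R replicates 1 to 3, against 2.08%, 1.51% and 1.08% in Sham replicates 1 to 3. The groups overlapped, with means of 1.62 ± 0.47% in I/R and 1.56 ± 0.50% in Sham hearts (n = 3 each). Over all libraries the share was 134 of 8346 reads, or 1.61% with a 95% Wilson interval of 1.36% to 1.90%. In plain levels, miR-208a-3p exceeded miR-208b-3p 64.1 ± 18.3 times in I/R and 67.8 ± 22.3 times in Sham hearts. The log2 ratio of miR-208b-3p to miR-208a-3p was taken with 1 RPM added to each level, which shrinks it. It was -5.48 ± 0.27 in I/R and -5.56 ± 0.37 in Sham hearts. The difference of 0.08 gave p = 0.7 in a two-sided exact permutation test (adjusted p = 0.7 over 2 ratios), where 0.1 is the smallest p that 3 against 3 hearts allow. Its sign turned without I/R replicate 2 and without Sham replicate 3, with values of -0.06 and -0.10.

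The Myh7b miRNA was set against the Myh6 miRNA in the same way. miR-499-5p exceeded miR-208a-3p 40.2, 32.4 and 36.2 times in I/R replicates 1 to 3, against 36.1, 32.3 and 31.4 times in Sham replicates 1 to 3. The highest ratio was in an I/R heart, but I/R replicate 2 lay within the range of the Sham hearts. The log2 ratio was 5.17 ± 0.15 in I/R and 5.05 ± 0.11 in Sham hearts (n = 3 each), a difference of 0.12 with exact permutation p = 0.2 (adjusted p = 0.4 over 2 ratios). Between libraries with the same replicate number it was higher in the I/R heart in 3 of 3 cases, although the labels do not call these pairs. With the replicate block the exact permutation p was 0.25, the smallest that 3 pairs allow. This ratio does not depend on how the libraries are scaled, apart from the pseudocount.

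**Figure D3:**
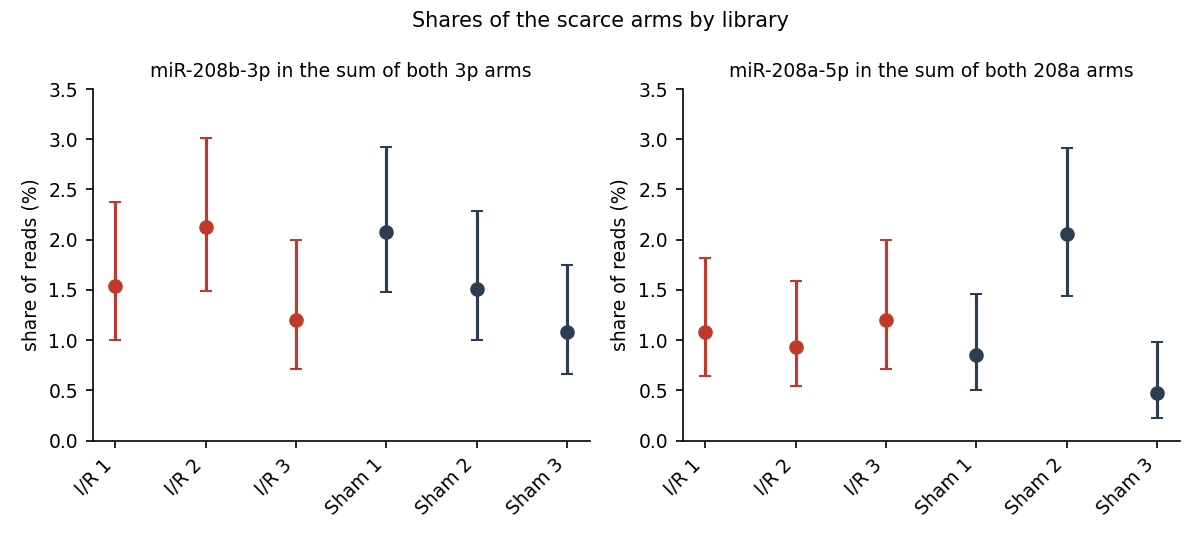
Share of miR-208b-3p in the reads of miR-208a-3p and miR-208b-3p (left) and of miR-208a-5p in the reads of both miR-208a arms (right), in percent, in each I/R (red) and Sham (dark) library with 95% Wilson intervals of counting. The shares of miR-208b-3p lie between 1.08% and 2.12% with both groups overlapping, and that of miR-208a-5p is highest in Sham replicate 2, at 2.05%.

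Arm use was strongly one-sided at all 3 hairpins, toward the arm that carries the shared seed. The passenger arm held 1.10% of the miR-208a reads over all libraries (91 of 8303, 95% Wilson interval 0.894% to 1.34%). For miR-208b it held 4.29% (6 of 140, interval 1.98% to 9.03%), and for miR-499 0.0028% (8 of 284344, interval 0.0014% to 0.0056%). The intervals of miR-208a and miR-208b did not overlap, although both rest on pooled reads of 6 hearts and cover counting error only. Only miR-208a had both arms above the filter. Among 94 such precursors it took place 11 by its excess of the 3p over the 5p arm on the log2(RPM + 1) scale. On that scale, 5p minus 3p was -5.87 ± 0.15 in I/R and -5.97 ± 0.70 in Sham hearts (n = 3 each). The 1 RPM added to each level shrinks these values, because the 5p arm is scarce. In plain levels, 3p exceeded 5p 93.3 ± 12.0 times in I/R and 124 ± 80.9 times in Sham hearts. On the log2(RPM + 1) scale the difference of I/R from Sham was 0.10, with SE 0.34 and limma adjusted p = 0.967. Its 95% interval was -0.71 to 0.90. Of the 94 precursors 0 (0%) were called in limma, with 6 at an unadjusted p under 0.05. Without Sham replicate 2 the difference was 0.47 and without Sham replicate 3 it was -0.22, with limma adjusted p of 0.414 and 0.827, so neither was called.

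Across the whole table, the comparison of I/R with Sham called 0 of the 4 tested arms, against 0 of 409 miRNAs (0%) in limma at an adjusted p under 0.05. At an unadjusted p under 0.05 there were 30 of the 409 and 0 of the 4 arms. On the recovered reads edgeR called 0, with 26 names under 0.05 before adjustment. DESeq2 called 2 (0.489%), neither of them a member. With the replicate number as a block limma called 4 (0.978%), again without a member, and adjusted p of the 4 arms was then 0.782 to 0.990. Levels in I/R and Sham hearts did not overlap for 62 of the 409 (15.2%) and for 0 of the 4 arms. Of the 409, 11.2% lay wholly higher and 3.91% wholly lower in I/R hearts. Such a split depends on the scaling, since at an unadjusted p under 0.05 limma had 29 higher and 1 lower, and edgeR 11 higher and 15 lower. The median log2 fold change of the 4 was -0.01, beside 0.10 for all 409, whose values were therefore not centred on 0. Relative to that median the 4 log2 fold changes were -0.20 for miR-208a-3p, -0.11 for miR-208a-5p, -0.12 for miR-208b-3p and -0.08 for miR-499-5p. Each arm's 95% interval includes the median of all 409. edgeR moved the median by -0.11, and relative to its own median miR-208a-3p stood at -0.21 and miR-499-5p at -0.09.

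**Figure D4:**
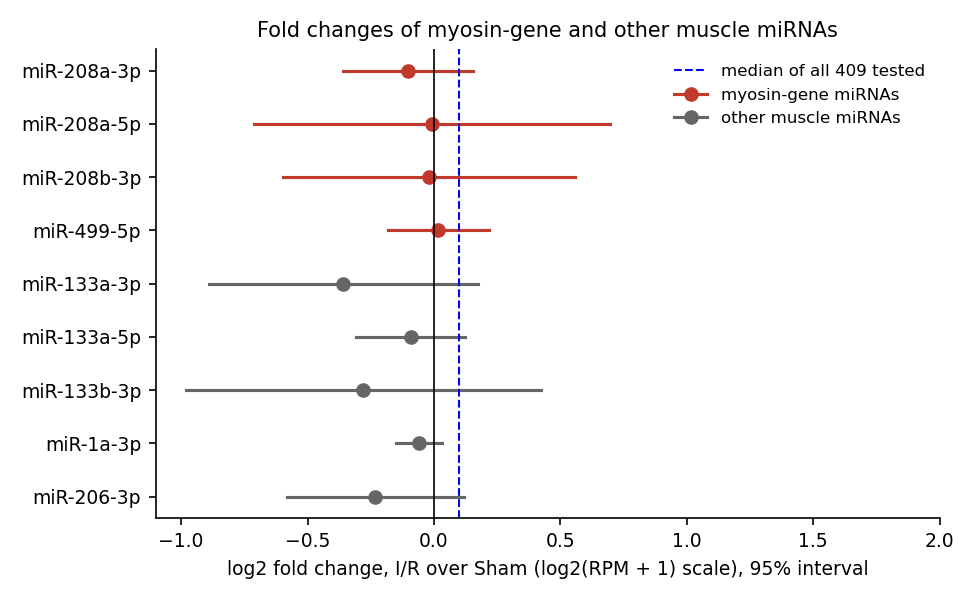
Log2 fold change of I/R over Sham on the log2(RPM + 1) scale with 95% intervals from limma, for the 4 tested myosin-gene arms (red) and 5 other muscle miRNAs (grey), with the median of all 409 tested as a dashed line at 0.10. Each of the 9 intervals includes 0, and those of miR-499-5p and miR-208a-3p are narrower than those of the scarce arms.

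Other muscle miRNAs gave the setting for these values. Of 8 listed arms of miR-1a, miR-133 and miR-206, which act in muscle differentiation and growth, 5 were tested and 0 were called in either direction, with adjusted p of 0.661 to 0.792. All 5 log2 fold changes were negative, with a median of -0.23 beside 0.10 for all 409. That median rests partly on single libraries, and was -0.06 without Sham replicate 2 and -0.12 without I/R replicate 3. Without Sham replicate 2 the value of miR-133b-3p turned to 0.11 (limma adjusted p = 0.830). miR-133a-5p was at 337 ± 10.1 RPM in I/R and 359 ± 9.4 RPM in Sham hearts (n = 3 each), with a limma log2 fold change of -0.09 (adjusted p = 0.791). miR-133a-3p, at 919 ± 108 RPM in I/R and 1231 ± 493 RPM in Sham hearts, had a log2 fold change of -0.36 (limma adjusted p = 0.661), which was -0.05 without Sham replicate 2, the library with 1798 RPM. The groups did not overlap for 2 of the 5, miR-1a-3p and miR-133a-5p, both lower in I/R hearts, beside 3.91% of all 409 wholly lower. That split also depends on the scaling. The 8 were listed with earlier results of these data known, so their common sign and this count are descriptions.

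The miRNAs whose levels ran most nearly parallel to each guide arm were found from the SD of their log2 ratio to it over the 6 libraries, among names with a mean of at least 100 RPM. For miR-208a-3p they were miR-340-5p (SD 0.03), miR-30e-5p (0.05) and miR-29a-3p (0.08), where the median of 113 candidates was 0.20. For miR-499-5p they were miR-99a-5p (0.08), miR-1b-5p (0.09) and miR-1a-3p (0.09), with a median of 0.18. miR-1b-5p and miR-1a-3p were almost alike, with limma log2 fold changes of -0.0591 and -0.0590 and within-group SDs of 0.0355 and 0.0354. miR-1b-5p stood at 182563 RPM in I/R and 190133 RPM in Sham hearts, against 365121 and 380232 RPM for miR-1a-3p. By these means the ratio between both names was nearly the same in each group. Whether both count the same reads was not tested, so they are not read here as separate signals. For miR-208b-3p, whose own counting error enters each ratio, the smallest SDs were larger, at 0.24 for miR-148a-3p, 0.26 for miR-378d and 0.26 for miR-30d-5p, with a median of 0.37 over 114 candidates. All libraries share 1 total, and these SDs describe 6 libraries and carry no test.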

How the data were processed

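Each library has 1 deposited signal value for each mature miRNA, and the table's name calls the unit FPKM. The submitters' processing notes name fastp 0.23.0, bcl2fastq 2.19.1.403 and genome mm10. Which aligner, miRNA annotation and handling of reads with several matches were used is not given in the sources used here. The deposited signal columns share 1 total, and each value is a whole multiple of the smallest value above 0 in its column, so whole reads were recovered for 100% of values (tolerance 0.01 reads) and levels expressed as RPM. The design had assumed FPKM with a length per miRNA, and the test on log values was kept.

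Names entered the fit if they averaged 1 RPM or more and had reads in at least 3 of 6 libraries, which left 409, 7 of them predicted miRNAs. They were fitted on log2(RPM + 1) by limma 3.58.1 with a trend, under R 4.3.3. All p-values are two-sided, adjusted by Benjamini-Hochberg over all names fitted, with 0.05 as the threshold. Arm ratios were fitted likewise in 94 precursors. edgeR 4.0.16 (TMM, quasi-likelihood) and DESeq2 1.42.0 on the recovered reads, scalings, pseudocounts, filters and left-out libraries were alternatives. The scripts were tested on simulated data. Named miRNAs were the members, the 8 other muscle arms and the 3 most parallel names per guide arm. Members and lists were chosen with earlier results of these data known.

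Replicates differed by more than sampling noise in each pair within a group (chi-square per degree of freedom 33.3 to 132). Deviations from group means correlated at 0.14, 0.28 and 0.16 across miRNAs between libraries with the same replicate number and at -0.19 to 0.07 between others. Centring on 3 libraries per group ties these correlations to each other, and the labels do not say what a number shares. Whether libraries with equal numbers are pairs therefore cannot be decided here. The limma fits and exact tests printed as results are unpaired, and the replicate block was run as an alternative.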

Additional observations from a re-analysis of the deposited data

How the results depend on the processing

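None of the alternatives run called a member arm, and the number of precursors called for arm balance was 0 under all 10. The count of miRNAs called, 0 in the main analysis, was 4 with the replicate block, 2 with DESeq2 and 0 to 1 with each library left out, and 0 under the others. The block changed no call of a member. The log2 fold change of miR-208a-3p kept its sign throughout. That of miR-499-5p was -0.0810 with median-ratio scaling, -0.0530 with totals without the 10 most abundant miRNAs, -0.0941 in edgeR, -0.0787 in DESeq2 and -0.0529 to 0.0645 with each library left out. That of miR-208a-5p was 0.0572 with 0.1 times the pseudocount and -0.27 to 0.34 with each library left out, and that of miR-208b-3p -0.22 to 0.16. With each library left out the arm balance of miR-208a was -0.22 to 0.47, the log2 ratio of miR-208b-3p to miR-208a-3p differed by -0.10 to 0.26, and that of miR-499-5p to miR-208a-3p by 0.04 to 0.20. The difference of the summed level, 64.4 RPM in the main analysis, was -219 to 254 RPM with each library left out and -330 RPM with median-ratio scaling. Chosen after seeing the data, leaving out each library was also run for the other muscle miRNAs, where miR-133b-3p ranged from -0.49 to 0.11 and miR-133a-3p from -0.55 to -0.05. The causes were not tested. The scarce tested arms had 7 to 32 reads per library, so their counting error is wide. Their within-group spread also exceeded counting, with a chi-square per degree of freedom of 4.01 for miR-208a-5p and 2.36 for miR-208b-3p. Of the members, a filter at a mean of 10 RPM left only miR-208a-3p and miR-499-5p.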
